A study of Mus musculus with 2 samples.

Results

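The cells described here are transferred young CD8 T cells that held Gzmk transcript and whose leading beta V segment was Trbv12-1, Trbv17 or Trbv19. They were taken from the CD45.1+ library only, as barcodes with at least 500 detected genes, at most 10% of their molecules (unique molecular identifiers, UMIs) from mitochondrial genes, and at least 2 Gzmk UMIs. The leading segment was the Trbv gene with the most UMIs in a cell, and ties were dropped. The rule gave 643 of the 14762 barcodes of the series, with 229 Trbv12-1, 252 Trbv17 and 162 Trbv19 cells. The members were chosen by their measured Gzmk and Trbv UMIs, so those levels are given as a description. The young cells were total CD8 T cells of wild-type CD45.1 C57BL/6J mice aged 3 months, moved into wild-type CD45.2 C57BL/6J hosts aged 24 months and recovered from spleen 1 month later by sorting for CD45.1, CD3e and CD8a. The host's own CD45.2+ CD8 T cells made the only other library. Each population gave 1 droplet 5' library, and the number of mice behind a library is not given in the labels. There was therefore no test, and every 95% interval covers counting error only.

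Granzyme K, encoded by Gzmk, is a serine protease of cytotoxic granules, and CD8 T cells that carry it accumulate in the tissues of old mice. A T cell receptor pairs a beta chain with an alpha chain, and each chain joins a V segment, chosen in the thymus, to further segments. All descendants of 1 T cell inherit the same rearrangements, so a V segment that is common in a cell state can mark expanded clones, although many unrelated clones also share a segment.

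The last 150 coding bases of the 3 beta segments are shown because these segments define the cells, 5' to 3' from GENCODE M21 (GRCm38). Capitals mark the stretch from the last in-frame cysteine codon to the segment's end, where the antigen-contacting junction begins.
Trbv12-1: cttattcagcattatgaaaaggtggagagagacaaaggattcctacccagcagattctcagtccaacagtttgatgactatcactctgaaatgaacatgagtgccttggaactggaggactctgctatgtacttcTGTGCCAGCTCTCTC
Trbv17: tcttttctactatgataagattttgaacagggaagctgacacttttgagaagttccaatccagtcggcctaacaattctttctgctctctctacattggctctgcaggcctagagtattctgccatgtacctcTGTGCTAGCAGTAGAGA
Trbv19: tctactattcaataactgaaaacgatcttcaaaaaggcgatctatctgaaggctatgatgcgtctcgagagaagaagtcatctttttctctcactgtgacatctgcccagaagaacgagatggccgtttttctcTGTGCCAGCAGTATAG
All are on the plus strand, at chr6:41113918-41114067 for Trbv12-1, chr6:41163407-41163556 for Trbv17 and chr6:41178899-41179048 for Trbv19. Over their whole coding sequences, Trbv12-1 differed from Trbv17 at 200 of 396 aligned positions and from Trbv19 at 200 of 396, and Trbv17 from Trbv19 at 159 of 369. The nearest other segment was Trbv12-2 for Trbv12-1, with 88.2% identity, Trbv4 for Trbv17 with 59.4% and Trbv29 for Trbv19 with 57.4%.

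The young donor library held 8588 barcodes and 65006187 UMIs, and 8001 cells (93.2%) were kept. Of these, 1285 (16.1%) held at least 2 Gzmk UMIs, 15 of them with tied and 5 with no Trbv. The 643 cells had a median of 4587 UMIs and the 622 Gzmk cells of other segments 4793, against 8331.5 in the 6470 cells with no Gzmk UMI. The 2 libraries shared 105 barcode sequences. The 7 CD8 T cell markers, Cd3e, Cd3d, Cd8a, Cd8b1, Trac, Trbc1 and Trbc2, were found in each segment's cells, with summed levels of 4653 CPM in Trbv12-1, 4631 in Trbv17 and 5327 in Trbv19 cells against 5347 in the other Gzmk cells (CPM, UMIs per 1000000 UMIs of the same cells). Of 7 B cell markers, 3 were found in Trbv12-1, 2 in Trbv17 and 2 in Trbv19 cells, and Ms4a1, Ebf1 and Pax5 were at 0 in each. Summed B cell levels were 55.0, 89.7 and 66.2 CPM, against 89.7 in the other Gzmk cells. Of 8 myeloid markers, 6, 4 and 5 were found, with C1qa at 0 in all 3 and summed levels of 176, 162 and 134 CPM against 150. Cd4 and Cd40lg were at 0 in all 3, and the CD4 list summed to 13.2, 29.6 and 44.5 CPM against 36.6. The gamma delta list summed to 27.1, 5.93 and 18.0 CPM against 87.7 in the other Gzmk cells.

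Trbv17 led 19.9% of the 1265 Gzmk cells with 1 leading segment (exact binomial interval 17.8 to 22.2%) and 2.67% of the 6223 such cells with no Gzmk UMI. Trbv12-1 led 18.1% and 9.05%, and Trbv19 12.8% and 7.44%. Put the other way, 58.2% of all kept Trbv17 cells held 2 or more Gzmk UMIs, against 27.9% of Trbv12-1 and 25.0% of Trbv19 cells. Among the other segments with at least 30 Gzmk cells, Trbv3 led 10.1% and Trbv14 9.41%, each also above its share without Gzmk (6.11% and 4.07%), while Trbv29, Trbv4, Trbv13-1 and Trbv31 led 6.32% or less. Gzmk itself was at 905 CPM in Trbv12-1, 1329 in Trbv17 and 965 in Trbv19 cells, against 854 in the other Gzmk cells. Just inside the threshold, at 2 Gzmk UMIs, lay 32, 19 and 24 cells, and just outside, at 1 UMI, lay 30, 15 and 22. Cells with a second Trbv segment at 2 or more UMIs made up 123 of the 252 Trbv17 cells, and without such cells the Trbv17 share was 13.8%.

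**Figure D1:**
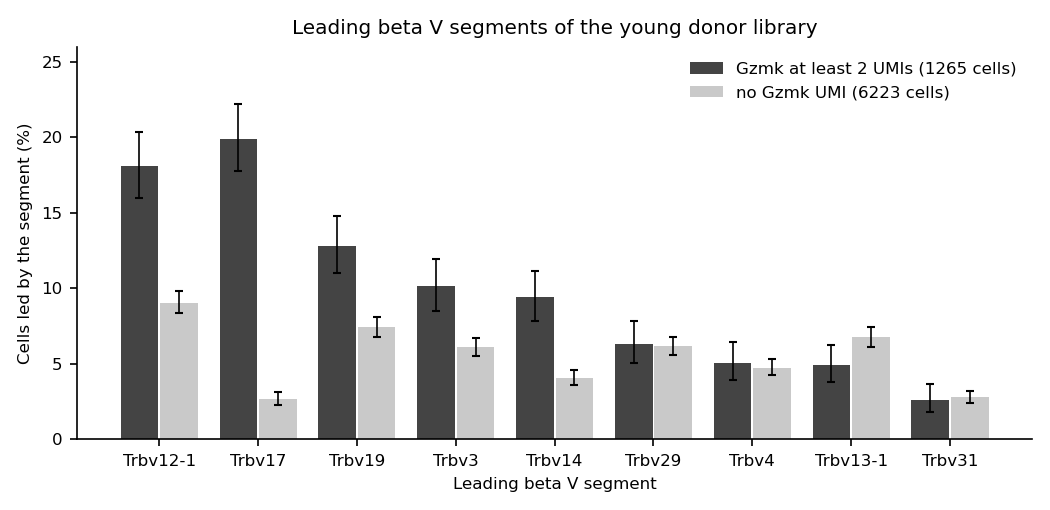
Share of cells led by each beta V segment in the young donor library, for cells with at least 2 Gzmk UMIs (dark bars) and cells with none (light bars), with 95% exact binomial intervals. Trbv17 had the widest gap of the 9 segments drawn, 19.9% against 2.67%.

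Alpha segments differed among the 3 groups of cells. The last 150 coding bases of 1 segment of each leading alpha family are shown to let these chains be told apart, from GENCODE M21 (GRCm38) with capitals as above.
Trav9d-3: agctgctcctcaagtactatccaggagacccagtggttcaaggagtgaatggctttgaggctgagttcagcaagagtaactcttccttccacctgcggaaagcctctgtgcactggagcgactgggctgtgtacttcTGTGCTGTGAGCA
Trav3n-3: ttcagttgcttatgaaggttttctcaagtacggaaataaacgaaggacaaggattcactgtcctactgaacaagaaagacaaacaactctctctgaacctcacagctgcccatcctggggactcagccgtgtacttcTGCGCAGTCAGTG
Trav14-1: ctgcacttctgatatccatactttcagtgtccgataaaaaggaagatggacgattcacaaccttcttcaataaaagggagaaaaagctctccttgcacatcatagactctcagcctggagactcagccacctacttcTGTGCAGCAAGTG
They lie on the plus strand, at chr14:52920963-52921112, chr14:53284026-53284175 and chr14:53554409-53554558. In Trbv19 cells, 136 had 1 leading Trav family, and it was Trav14-1 in 95 of them (69.9%, interval 61.4 to 77.4%) and Trav13-1 in 18. Trav6-5 was found in 61 of the 107 Trbv19 cells with Trav14-1 and in 1 of the 55 without it. In Trbv12-1 cells, Trav9-3, counting its copies Trav9d-3 and Trav9n-3, led in 40 of the 66 cells with a leading family (60.6%, 47.8 to 72.4%). In Trbv17 cells, Trav3-3, counting Trav3d-3 and Trav3n-3, led in 21 of 56 (37.5%, 24.9 to 51.5%), and the alpha J segment Traj21 was found in 15 of 252 cells against 0 of the 622 other Gzmk cells.

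Most Trbv12-1 and Trbv17 cells held no Trav UMI at all, namely 157 of 229 (68.6%) and 193 of 252 (76.6%), against 12 of 162 (7.41%) Trbv19 cells and 122 of 622 (19.6%) other Gzmk cells. Cells of the same segments without Gzmk lacked Trav in 25.8%, 24.7% and 15.6%. The annotated coding sequences of Trav9d-3 and Trav9n-3 were identical over all 340 bases, and those of Trav3d-3 and Trav3n-3 over all 343, whereas Trav14-1 differed from its nearest copy, Trav14n-1, at 16 of 364 positions. How the counting treated reads that match 2 genes equally was not given in the sources used here, and its part in the missing Trav was not tested. In the same segments without Gzmk the leading family took smaller shares, 8.40% (Trav13-1) in Trbv12-1, 11.3% (Trav3-3) in Trbv17 and 17.1% (Trav2) in Trbv19 cells.

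**Figure D2:**
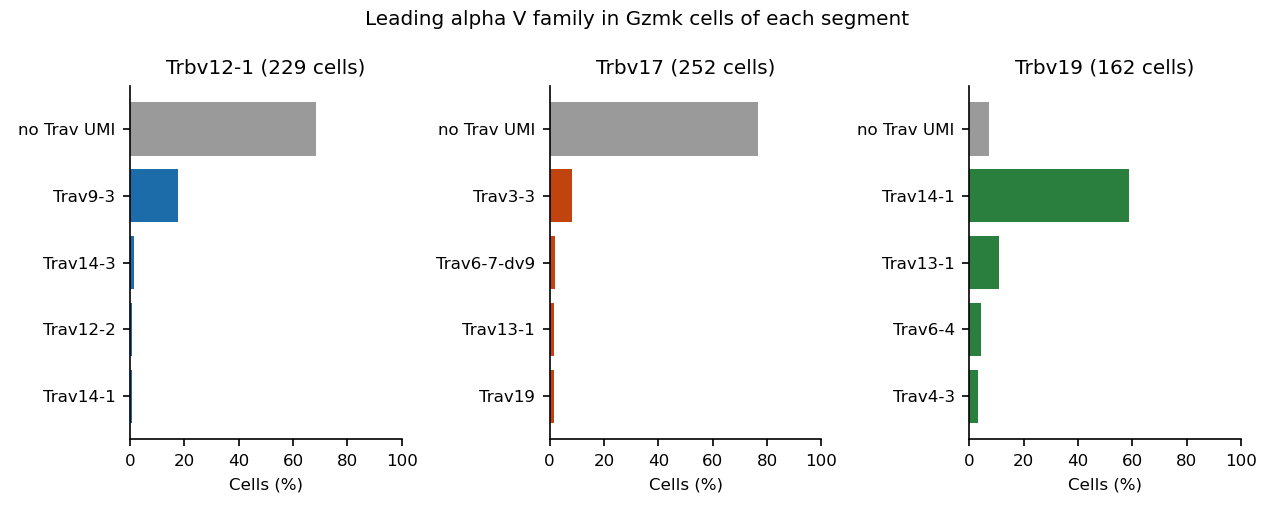
Percent of the Gzmk cells of each beta segment with no Trav UMI (grey) or led by each of the 4 most frequent Trav families (colour), with tied cells not drawn. Trav14-1 led in 58.6% of Trbv19 cells, while 68.6% of Trbv12-1 and 76.6% of Trbv17 cells had no Trav UMI.

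A second beta segment at 2 or more UMIs was found in 17.9% of Trbv12-1, 48.8% of Trbv17 and 33.3% of Trbv19 cells, against 11.9%, 21.1% and 11.2% of the same segments' cells without Gzmk. The second segments were not evenly spread. Trbv24 was second in 26 of the 41 Trbv12-1 cells that had one, Trbv13-2 in 52 and Trbv19 in 28 of the 123 Trbv17 cells, and Trbv13-2 in 24 and Trbv14 in 13 of the 54 Trbv19 cells. Trbv13-2 was also second in 15 of the 119 Gzmk cells and 30 of the 253 cells without Gzmk that Trbv14 led. Of the 28 Trbv17 cells with Trbv19 second, 2 were led by Trav14-1. The leading segment itself had a median of 28 UMIs a cell in Trbv17 cells, 8 in Trbv12-1 and 7 in Trbv19 cells. Second segments had a median of 2 UMIs, the threshold itself, in each second-segment group of these 3 segments named above. Cells counted as without a second segment had a median of 0 UMIs of one in Trbv12-1 and 1 in Trbv17 and Trbv19. Cells that a doublet score would remove made up 12.8% of the 643 cells, 17.7% of the other Gzmk cells and 4.71% of the cells without Gzmk.

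Genes outside the receptor loci were then compared between each segment and the 622 Gzmk cells of other segments, which held 3602567 UMIs. Only genes with at least 100 UMIs over both groups and 50 CPM in one were compared, and a gene counts as past 2-fold by its ratio alone. The comparisons share these 622 cells. Few genes went past 2-fold: 18 of 2529 (0.712%) in Trbv12-1, 24 of 2599 (0.923%) in Trbv17 and 11 of 2541 (0.433%) in Trbv19. The median log2 ratio of all genes compared was 0.05, 0.08 and 0.01.

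Trbv12-1 cells stood out by killer cell lectin-like receptors. Klra1 (ENSMUSG00000079853, chromosome 6, 130363917 to 130386874, minus strand), which encodes Ly49A, an inhibitory receptor for MHC class I, had 395 UMIs in 101 of the 229 Trbv12-1 cells, 8 in 3 of 252 Trbv17 cells and 0 in Trbv19 cells. The other Gzmk cells had 4 UMIs, of which 2 were in Trbv4 cells, and Trbv3, Trbv14, Trbv29, Trbv13-1 and Trbv31 cells were at 0. Levels were 289 CPM against 1.11, a log2 ratio of 8.03 (6.66 to 9.91). All 8001 kept cells held 654 Klra1 UMIs, so most of the library's Klra1 was in these cells. With every cell thinned to 2000 UMIs, Klra1 was found in 30.5% of 226 Trbv12-1 cells (24.6 to 37.0%), 0 of 616 other Gzmk cells and 0.590% of 6444 cells without Gzmk. For the 0, a limit of 3 cells would be 0.487%. Unthinned, the Trbv12-1 share was 44.1%, and median depths before thinning were 5233, 4793 and 8331.5 UMIs. Of the 10 Ly49 genes listed, Klra1 was the only one that passed the count filter, Klra4 and Klra17 were at 0, and genes of this family are close in sequence, so reads could have been assigned to the wrong member.

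The activating receptor NKG2D gene Klrk1 was at 351 CPM in Trbv12-1 cells against 78.0 (log2 2.17, 1.95 to 2.39), above all 6 other segments (14.3 to 127). Klre1 was at 213 against 47.2 CPM (2.18, 1.90 to 2.46) and Klrc1, which encodes NKG2A, at 218 against 74.4 (1.55, 1.31 to 1.79), both also above all other segments. Of 12 NKG2 and other Klr genes, 5 passed the filter, of which Klre1 and Klrg1 did so only through the Trbv12-1 cells, where they are higher. Klrk1 and Klrc1, at or above 50 CPM in both groups, were past 2-fold higher. The NK cell genes Ncr1, Klrb1c, Fcer1g and Tyrobp were at 0 UMIs in the 229 cells, and the 7 NK genes, Klre1 among them, summed to 528 CPM against 368. Klrk1 was found in 84 of the 101 cells with Klra1 and in 65 of the 128 without.

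Cd5, a surface protein that tempers receptor signalling, was at 355 CPM in Trbv12-1 cells against 141 (1.33, 1.15 to 1.51), inside the range of the other segments (73.8 to 396). The histone gene Hist1h2ap was at 477 against 178 CPM (1.42), but 5 cells held 90% of its 651 UMIs and Trbv3 cells were at 598. Stmn1, a microtubule regulator high in dividing cells, was at 85.0 against 33.0 CPM (1.36), with 57.8% of its UMIs in 5 cells, and the fatty acid binding protein gene Fabp5 at 50.6 against 20.8 (1.28). Of 15 cell cycle genes, 6 passed the filter, and Stmn1, past 2-fold, and Mcm3, at 57.9 against 33.6 CPM, passed only through the Trbv12-1 cells, where they are higher.

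Lower in Trbv12-1 cells were Cxcr6, a chemokine receptor, at 13.9 CPM against 100.2 (log2 -2.85, -3.60 to -2.18), Gzma, encoding granzyme A, at 24.9 against 135 (-2.43, -2.98 to -1.93), S100a4 at 55.7 against 171 (-1.62) and Dapl1 at 24.2 against 73.3 (-1.60). Rflnb, Armc7 and Serpinb6a had log2 ratios of -1.06, -1.04 and -1.04, and Dtx1, next in order, -0.96. Of these 8, only Cxcr6, Armc7 and Dtx1 were below all 6 other segments. In all, 11 genes (0.435%) were higher and 7 (0.277%) lower. With ribosomal, mitochondrial and receptor genes left out of the totals the split was 13 higher and 17 lower, and with each cell scaled alike it was 8 and 9.

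Inside Trbv12-1, Klra1 was found with every alpha group. It was found in 21 of the 40 Trav9-3 cells, 65 of the 157 cells without Trav and 11 of the 26 cells with another leading Trav. Its level was 437 CPM in the Trav9-3 cells (358 to 529), 279 in those without Trav (245 to 318) and 176 in those with another Trav (127 to 238). Gzmk was at 969, 1014 and 508 CPM in the same order. Median depths of these groups were 5131, 5009 and 9547.5 UMIs. Of the 26 Trbv12-1 cells with Trbv24 second, 25 held Klra1, at 523 CPM (425 to 637), against 67 of the 188 with no second segment, at 267 CPM (236 to 301). Their median depths were 6528.5 and 4976.5 UMIs, which moves with these counts of cells.

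Among the genes higher in Trbv17 cells, the largest ratios were at Atp6v1g3 and Atp1b1, which are in none of the T cell lists used. Atp6v1g3 (ENSMUSG00000026394, chromosome 1, 138273738 to 138289462), a subunit gene of the proton pump V-ATPase, had 118 UMIs in 85 of 252 Trbv17 cells, 0 in Trbv12-1, 2 in Trbv19 and 6 in the other Gzmk cells. Levels were 87.5 CPM against 1.67, a log2 ratio of 5.71 (4.55 to 7.19), and all 8001 kept cells held 184 UMIs. The gene starts 98.0 kb from the 5' start of Ptprc, which encodes the CD45 antigen that marks donor and host. The cells of all segments compared here came from the same CD45.1+ library. Atp1b1 (ENSMUSG00000026576, chromosome 1, 164437109 to 164458355), the beta subunit gene of the sodium-potassium pump, had 142 UMIs in 100 Trbv17 cells, 2 in Trbv12-1 and 0 in Trbv19 cells, and was at 105 CPM against 4.996 (4.40, 3.68 to 5.19). All 8001 kept cells held 1006 Atp1b1 UMIs, so most lay outside the Trbv17 Gzmk cells. Among Gzmk cells, both genes were above all 6 other segments, whose highest levels were 5.32 and 9.83 CPM. Thinned to 2000 UMIs, Atp6v1g3 was found in 19.8% of 248 Trbv17 cells (15.0 to 25.3%), 0.487% of other Gzmk cells and 0.279% of cells without Gzmk, and unthinned in 33.7%. For Atp1b1 these shares were 17.7%, 0.812% and 3.01%, and 39.7% unthinned. Atp1b1 was found in 33 of the 85 Trbv17 cells with Atp6v1g3 and in 67 of the 167 without. With 118 and 142 UMIs over 252 cells, a cell with both transcripts could miss either. These shares therefore cannot show whether the 2 genes go together in a cell.

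Esm1, an endothelial proteoglycan gene, had 101 UMIs in 78 Trbv17 cells, at 74.9 CPM against 11.4 (log2 2.72, 2.18 to 3.28), and 0 UMIs in the 6470 cells without Gzmk. Esm1 (chromosome 13, 113209659 to 113218098, plus strand) lies inside the annotated span of Gzmk (113171608 to 113225908, minus strand), and whether counting used strand was not given in the sources used here. Its value is therefore uncertain. Ccr2, the receptor for the monocyte chemokine CCL2, had 332 UMIs in 152 Trbv17 cells, at 246 CPM against 101 (1.29, 1.07 to 1.51), and ranged from 11.5 CPM in Trbv14 to 208 in Trbv13-1 cells among the other segments. It was at 76.2 CPM in Trbv12-1 and 90.2 in Trbv19 cells, inside that range. Platr17 (52.6 against 9.72 CPM, 2.44) was also at 56.1 in Trbv4 cells. Bpgm, a glycolytic side-path enzyme gene, had a log2 ratio of 1.69, the mitochondrial protein gene Chchd10 1.30, the fatty acid transporter gene Slc27a4 1.28 and Cd5 1.25.

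Gzma was nearly missing from Trbv17 cells, with 4 UMIs in 252 cells (2.96 against 135 CPM, log2 -5.51, -7.39 to -4.14), though Trbv4 cells were at 0. Klrk1 was at 11.1 against 78.0 CPM (-2.81), Cxcr6 at 17.0 against 100.2 (-2.56), the protease inhibitor gene Serpina3g at 28.9 against 138 (-2.25), the galectin gene Lgals3 at 14.8 against 68.0 (-2.20) and Cd160 at 14.8 against 51.9 (-1.81). The integrin beta 1 gene Itgb1 was at 100.05 against 268 CPM (-1.42) and S100a6 at 483 against 1279 (-1.40). Except for Gzma and Cd160, these 8 genes were below all 6 other segments outside the 3 described here. In all, 13 genes (0.5%) were higher and 11 (0.423%) lower, against 17 and 20 with ribosomal, mitochondrial and receptor genes left out of the totals and 16 and 16 with each cell scaled alike.

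Inside Trbv17, Atp6v1g3 and Atp1b1 were found in every group split by second beta segment. Atp6v1g3 was at 80.4 CPM in the 129 cells with none (58.4 to 108), 141 with Trbv13-2 (98.0 to 198) and 116 with Trbv19 (71.0 to 180), and Atp1b1 at 113, 137 and 98.8. By alpha group, Atp6v1g3 was at 103 CPM without Trav (82.2 to 127), 89.1 with Trav3-3 (40.7 to 169) and 54.5 with another Trav (33.7 to 83.3). Atp1b1 was at 119 (97.1 to 145), 129 (68.5 to 220) and 67.5 (44.1 to 98.9). Other genes differed between these groups too. Median depths were 11998 UMIs in the 35 cells with a leading Trav other than Trav3-3, 4172 without Trav and 4099 with Trav3-3. The part of depth in the values by alpha group was not tested. Itgb1 was found in 28 of the 35 cells with a leading Trav other than Trav3-3, in 52 of the 193 without Trav and in 1 of the 21 Trav3-3 cells, at 171, 79.1 and 9.90 CPM. Esm1 was found in 69 of the 193 cells without Trav, 6 of the 35 and 2 of the 21. Ccr2 was at 290 CPM without Trav (255 to 329), 336 with Trav3-3 (233 to 470) and 135 with another Trav (101 to 177). Ccr2 was not alone in this, since Atp6v1g3 and Atp1b1 were also lowest with another Trav. Gzmk was at 1656, 1277 and 628 CPM in that order, but its UMIs chose the cells, so these levels are a description only.

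Trbv19 cells had 11 genes past 2-fold against the other Gzmk cells, or 33, of which 19 were higher and 14 lower, with the Trav14-1 cells left out. That removed 95 of the 162 cells and kept the 18 cells led by Trav13-1, and the part of the smaller cell number was not tested. The 11 were 3 higher (0.118%) and 8 lower (0.315%), or 3 and 18 with large gene families left out of the totals, and 6 and 8 with each cell scaled alike. The chemokine genes Ccl3 and Ccl4 were at 202 CPM against 61.9 (log2 1.71, 1.41 to 2.00) and 445 against 184 (1.27, 1.09 to 1.46), and the methyltransferase gene As3mt at 56.5 against 24.4 (1.21). Exoc6, Nr4a2, Ift27, Ly75 and Gtf3c1 followed, below 2-fold, at log2 ratios from 0.85 to 0.90. Thinned to 2000 UMIs, Ccl3 was found in 18.0% of Trbv19 cells (12.4 to 24.8%), 10.4% of other Gzmk cells and 0.357% of cells without Gzmk, and unthinned in 28.4%.

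The chemokine difference rested on a small alpha group. The 18 Trbv19 cells led by Trav13-1 held 102 of the 168 Ccl3 UMIs, at 1462 CPM (1192 to 1775), while the 95 Trav14-1 cells were at 83.7 (59.8 to 114). For Ccl4 the levels were 2896 (2511 to 3324) and 228 (187 to 275), and for Lag3, an inhibitory receptor, 889 (682 to 1140) and 98.3 (72.3 to 131). Ccl3 was found in 10 of the 18 cells and Lag3 in 16. Of the 102 Ccl3 UMIs 1 cell held 54, and without it the other 17 cells were at 721 CPM (532 to 956), with Trbv19 as a whole at log2 1.15 (0.81 to 1.49). Without the Trav13-1 cells, Ccl3 was at 86.7 CPM (log2 0.49, 0.07 to 0.89), Ccl4 at 221 (0.26, 0.01 to 0.51) and Lag3 at 84.0 (-0.11, -0.52 to 0.28). Leaving out these cells, or the 1 cell, was chosen after the data were seen.

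**Figure D3:**
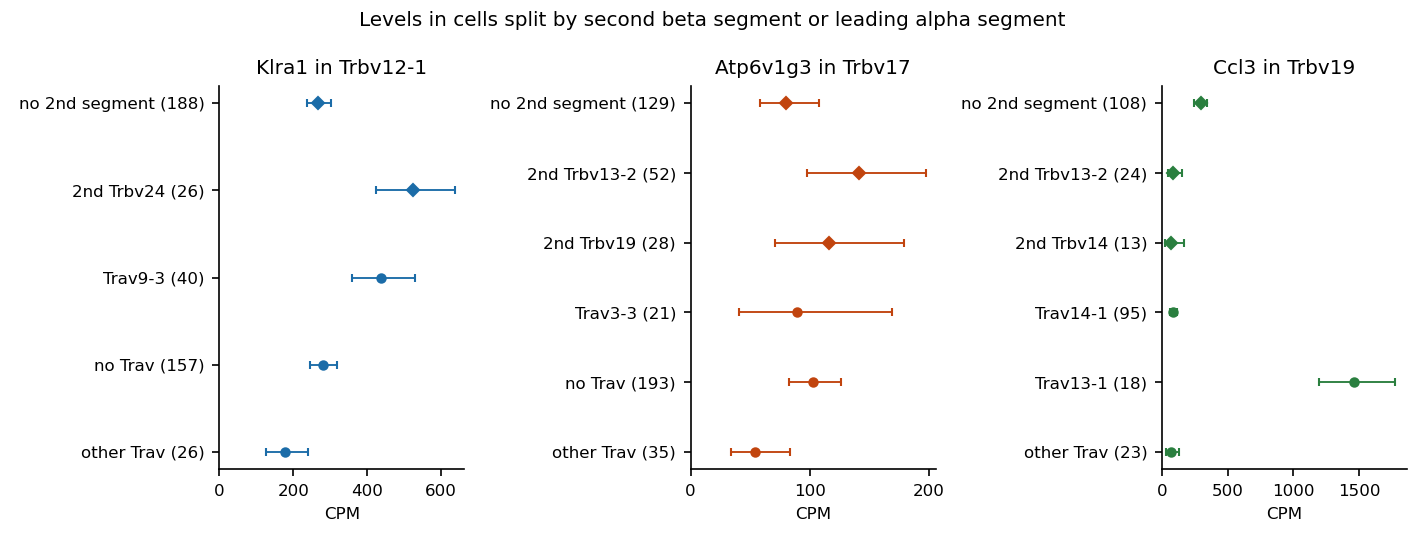
CPM of Klra1, Atp6v1g3 and Ccl3 in cells of their segment split by second beta segment (diamonds) or by leading Trav family (circles), with 95% Poisson intervals and cell numbers in brackets. Ccl3 stood at 1462 CPM in the Trav13-1 cells and at 83.7 CPM in the Trav14-1 cells.

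Lower in Trbv19 cells were Gzma, with 15 UMIs of which 1 cell held 13 (18.0 against 135 CPM, log2 -2.90), S100a4 (27.7 against 171, -2.63, -3.30 to -2.03), Klrk1 (18.0 against 78.0, -2.11), Lgals3 (16.8 against 68.0, -2.01), Cxcr6 (30.1 against 100.2, -1.74), Klrc1 (-1.20), Cd160 (-1.11) and Hist1h2ap (-1.004). Of these 8, S100a4 and Lgals3 were below all 6 other segments outside the 3 described here.

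Gzma and Cxcr6 were past 2-fold lower in all 3 segments, and the group they were set against was itself mixed. Among the other segments, Gzma ranged from 0 UMIs in Trbv4 to 280 CPM in Trbv14 cells, and Cxcr6 from 20.7 in Trbv4 to 307 in Trbv14. S100a4 ranged from 45.18 in Trbv3 to 546 in Trbv14. Trbv14 cells thus carried the top level of all 3 genes.

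**Figure D4:**
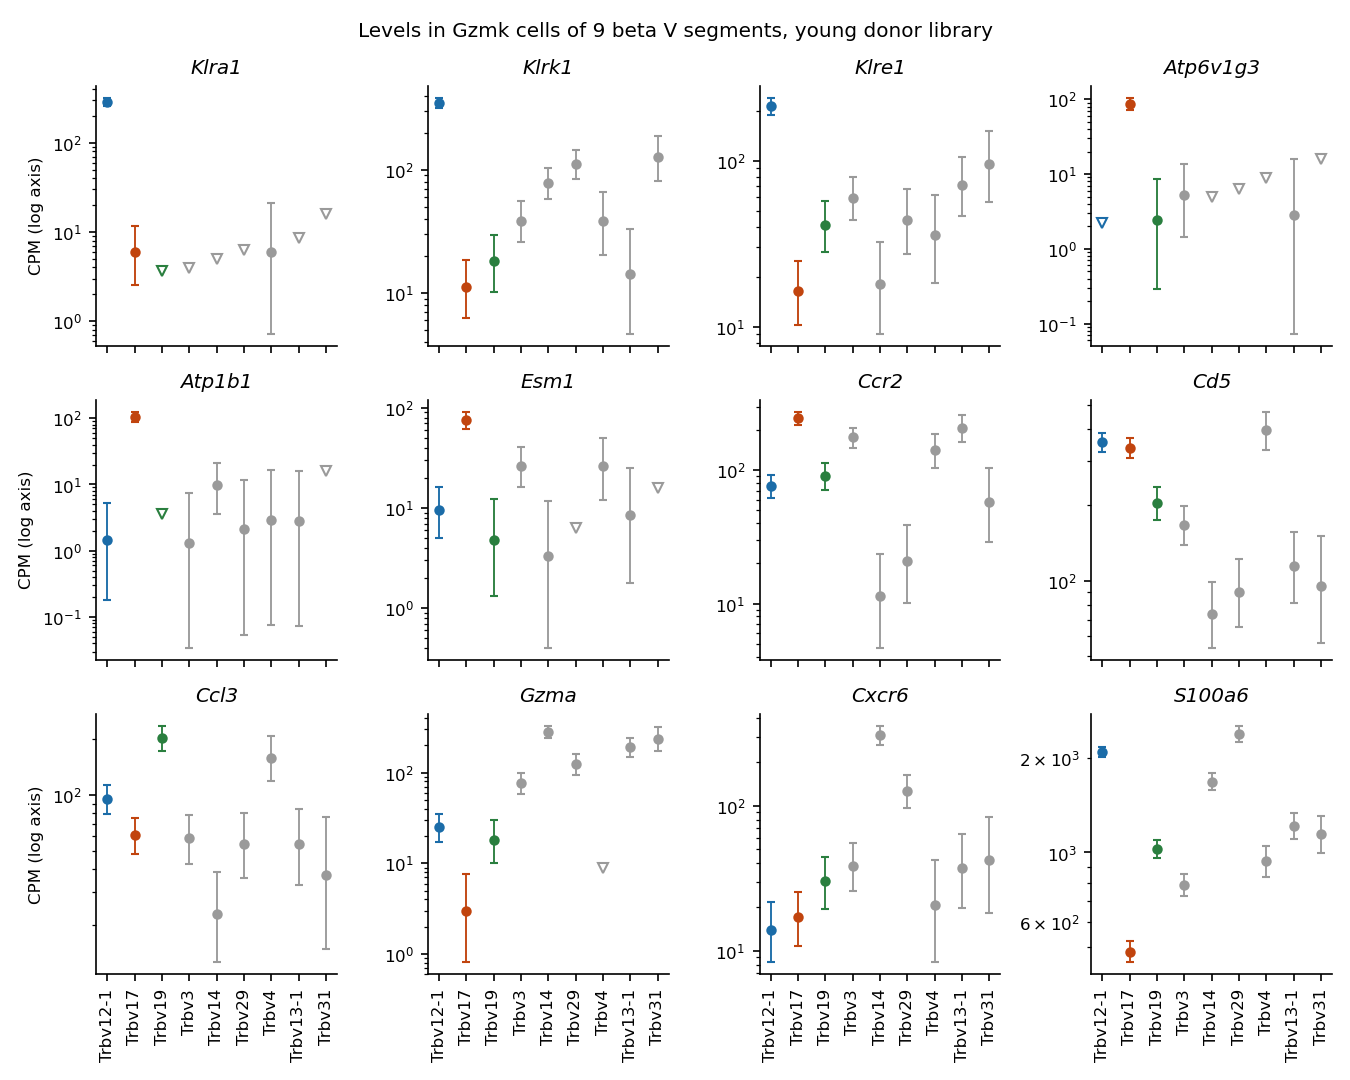
CPM of 12 genes, on log axes, in Gzmk cells of the 3 segments (blue, orange, green) and of 6 other segments (grey), with 95% Poisson intervals; open triangles mark 0 UMIs, drawn at the level of 3 UMIs. Klra1 was high in Trbv12-1 cells, Atp6v1g3 and Atp1b1 in Trbv17 cells, and Gzma and Cxcr6 were highest in Trbv14 cells.

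The regulator gene Tox was at 159 CPM in Trbv12-1, 236 in Trbv17 and 241 in Trbv19 cells against 169. Of the 14 exhaustion regulators, 5, 6 and 6 passed the filter in the 3 comparisons, with 0 past 2-fold. The share past 2-fold among all genes compared was 0.712%, 0.923% and 0.433%, so lists this short would rarely hold one. Intervals lay above 0 for 1, 3 and 3 of these regulators and below 0 for 2, 2 and 0. Eomes, a T-box factor, was at 237, 302 and 227 against 206, and the inhibitory receptor gene Tigit at 183, 170 and 183 against 147. Pdcd1, encoding PD-1, was at 52.0, 49.7 and 65.0 CPM against 88.3, where Trbv14 cells alone were at 236, and Lag3 at 57.2, 51.1 and 152 against 90.8. Within Trbv19, Pdcd1 was at 358 CPM in the 18 Trav13-1 cells (232 to 529) and 48.1 in the 95 Trav14-1 cells (30.5 to 72.2). Of the 9 inhibitory receptor genes in the table, 4 passed the filter, and Cd160 was past 2-fold lower in Trbv17 and Trbv19. Ccl5 was at 28192, 29039 and 31156 CPM against 23288 (log2 0.28, 0.32 and 0.42). Granzyme B (Gzmb) was at 98.2, 55.6 and 81.8 against 93.3, and Klrg1 at 61.5, 52.6 and 54.1 against 46.9.

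Of 11 granule genes, 9 passed the filter in Trbv12-1 and Trbv17 and 10 in Trbv19, and Gzma was the only one past 2-fold in each. Of 12 effector memory genes, 9 passed in Trbv12-1 and 8 in Trbv17 and Trbv19. S100a4 was past 2-fold lower in Trbv12-1, S100a6 and Lgals3 in Trbv17, and S100a4 and Lgals3 in Trbv19. In Trbv12-1, however, the intervals of 7 of these genes lay above 0 and 1 below. In Trbv17 the counts were 2 and 5, and in Trbv19 0 and 6. The list summed to 6676, 3775 and 3639 CPM against 5038 in the other Gzmk cells. S100a6 alone was at 2093 CPM in Trbv12-1, 483 in Trbv17 and 1026 in Trbv19 cells, against 1279 in the other Gzmk cells. Among 14 homing receptors, Ccr2 was past 2-fold higher in Trbv17 and Cxcr6 lower in each segment. The 13 MHC class I genes and 12 receptor complex and coreceptor genes all passed the filter, and among them only Cd5 went past 2-fold, in Trbv12-1 and Trbv17. In the Trbv12-1, Trbv17 and Trbv19 comparisons, 9, 10 and 10 of 15 interferon response genes passed the filter, 9 of 13 glycolysis genes in each, 4 of 10 costimulatory receptor genes in each, 8, 7 and 7 of 11 cytokine receptor genes, and 9 of 11 apoptosis and survival genes in each. Of those compared, 0 were past 2-fold. For these and the other lists of this paragraph, the share among all genes compared was 0.712%, 0.923% and 0.433%.

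Set against each other, the segments differed at 32 of 2626 genes between Trbv12-1 and Trbv17 (1.22%), 21 of 2510 between Trbv12-1 and Trbv19 (0.837%) and 16 of 2557 between Trbv17 and Trbv19 (0.626%). Over Trbv17, Trbv12-1 cells were higher at 19 genes (0.724%), led by Klra1 (log2 5.61), Klrk1 (4.98), Klre1 (3.71), Hist1h2ap (2.81) and Lgals3 (2.80). The 13 lower ones (0.495%) were led by Atp1b1 (-6.17), Atp6v1g3, Esm1 (-2.97), Arhgap31 (-2.10) and Ccr2 (-1.69). The Esm1 value is uncertain, as said above, because the gene lies inside the annotated span of Gzmk. Atp6v1g3 had 0 UMIs against 118, a 39.8-fold ratio with the 0 set to 3 counts (log2 interval up to -4.99).

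Over Trbv19, Trbv12-1 cells were higher at 17 genes (0.677%), led by Klra1, Klrk1 at 4.28, Klrc1 at 2.74, Stmn1 at 2.68 and Lgals3 at 2.62. Klra1 had 395 UMIs against 0, an 80.2-fold ratio with the 0 set to 3 counts (log2 interval from 6.02). Trbv12-1 cells were lower at 4 genes (0.159%), Lag3 (-1.41), Ccl3 (-1.09), Nr4a2 (-1.05) and Dtx1 (-1.03). With each cell scaled alike, 17 genes were higher and 8 lower. Without the Trav13-1 cells of Trbv19, the Trbv12-1 ratio was 0.14 for Ccl3 (-0.30 to 0.59), -0.56 for Lag3 (-1.05 to -0.06), -0.58 for Nr4a2 (-1.18 to 0.03) and -0.89 for Dtx1 (-1.46 to -0.33). Trbv17 cells were higher than Trbv19 cells at 12 genes (0.469%), with Atp1b1, Atp6v1g3 at 5.18, Esm1 at 3.96, S100a4 at 1.95 and Ccr2 at 1.45. The Esm1 value is uncertain here too. Atp1b1 had 142 UMIs against 0, a 29.2-fold ratio with the 0 set to 3 counts (log2 interval from 4.55). Trbv17 cells were lower at 4 genes (0.156%), Serpina3g (-2.86), Ccl3 (-1.73), Lag3 (-1.57) and S100a6 (-1.09). Without the Trav13-1 cells these were -2.67, -0.51 (-0.997 to -0.022), -0.72 (-1.23 to -0.20) and -1.03.

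Cells of the same segments that the Gzmk threshold left out were compared next. In Trbv12-1 cells, Klra1 was found in 13 of 563 cells with 0 Gzmk UMIs (2.31%), 8 of 30 with 1 (26.7%), 9 of 32 with 2 (28.1%) and 92 of 197 with 3 or more (46.7%). Cells of all other segments stayed between 0.472% and 1.06%. In Trbv17 cells, Atp6v1g3 was found in 1 of 166, 3 of 15, 8 of 19 and 77 of 233 cells, and Atp1b1 in 12 of 166, 3 of 15, 8 of 19 and 92 of 233. Atp1b1 was also found in 10.8% of other segments' cells without Gzmk, whose median depth was higher. Ccl3 was found in 29.7% of Trbv19 cells with 3 or more Gzmk UMIs (22.2 to 38.1%) and in 20.4% of such cells of all other segments (17.8 to 23.2%), intervals that overlap.

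**Figure D5:**
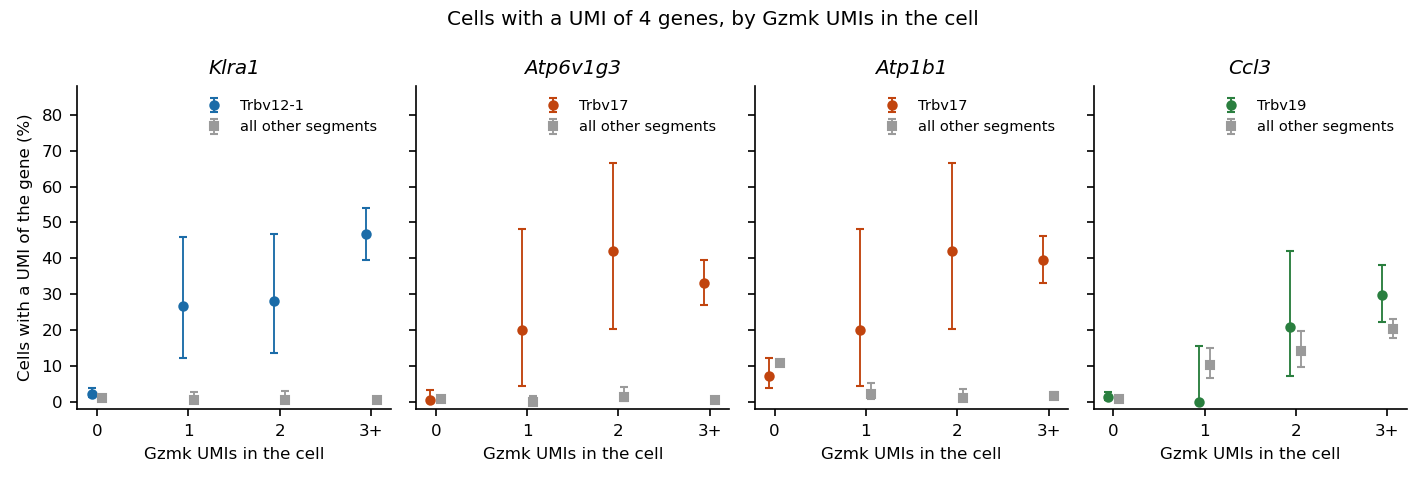
Percent of cells with a UMI of each gene, by Gzmk UMIs in the cell, for the named segment (colour) and all other segments (grey), with 95% exact binomial intervals and no thinning. Klra1 was found in 2.31% of Trbv12-1 cells with no Gzmk UMI and in 46.7% of those with 3 or more.

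The old host's own cells met the same rule in 167 cases, 40 Trbv12-1, 86 Trbv17 and 41 Trbv19. Trbv17 led 7.33% of host Gzmk cells with 1 leading segment and 2.84% of host cells without Gzmk, while the same shares were 3.41% and 6.49% for Trbv12-1 and 3.50% and 6.66% for Trbv19. Klra1 was at 0 UMIs in all 1186 host Gzmk cells, with an upper interval bound of 0.547 CPM. Atp6v1g3 had 2 UMIs in the 86 host Trbv17 cells (3.92 CPM) and Atp1b1 4 (7.83 CPM). Ccr2 was at 110 CPM in host Trbv17 cells (82.8 to 142), against 246 in donor Trbv17 cells. Platr17 was at 68.5 CPM in host Trbv17 cells (47.7 to 95.3) and 12.0 in all host Gzmk cells, and S100a6 at 2310 in host Trbv12-1, 601 in host Trbv17 and 1437 in host Trbv19 cells. Klrk1 was at 25.0 CPM in host Trbv12-1 cells (9.17 to 54.4) and 112 in host Trbv19 cells, and Gzma at 137 in host Trbv17 cells, against 351, 18.0 and 2.96 in the donor. Host cells of the 3 segments were led by other alpha families, Trav12-3 in 12 of 36 Trbv12-1 cells, Trav7-1 in 34 of 68 Trbv17 cells and Trav12-2 in 6 of 26 Trbv19 cells. Both libraries came from hosts of the same age, and cell age, transfer and library cannot be told apart here.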

How the data were processed

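Sorted splenic CD8 T cells were measured in 2 droplet 5' gene expression libraries, 1 per group. The deposited values are raw UMI counts per gene and barcode with no normalization by the authors. The labels list mm10, Cell Ranger and Seurat, per the submitters' processing notes, and the software version in the matrix was 3.0.2 per the file headers. The annotation release and the rule for calling cells were not given in the sources used here, and receptor libraries made from these cells were not used here. PCR duplicates are collapsed by UMI. Intervals cover counting error only, and those for CPM and ratios treat UMIs summed over cells as independent. They leave out the spread between cells, so they are too narrow where a few cells hold most UMIs of a gene.

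The 31053 features were summed to 31017 symbols and placed with GENCODE M21, which held 99.6% of them. UMIs were summed over cells and divided by the same cells' total (CPM). Intervals are exact Poisson for CPM, exact binomial for shares and exact for the ratio of 2 Poisson sums, all at 95%. A 0 was given a limit of 3 counts. Each group had 1 library, so nothing was tested, and called means past 2-fold. Receptor and immunoglobulin genes were left out of the gene comparisons. Genes named were the 8 highest and 8 lowest per segment and 5 each way per pair, without ribosomal, mitochondrial and unnamed gene models, plus 14 named always and list members past 2-fold. Cd5 and Hist1h2ap fall under more than one part of this rule, and genes named within alpha or second-segment groups were singled out after their values were seen. The 28 gene lists held 20 for comparison, 7 for other cells and 1 for CD8 T cells. The members, lists and tests were chosen with earlier results of these data known. Alpha groups used Trav alone because Trbj was found in 20 of the 643 cells. Doublets were kept. A nearest-neighbour score with 2 artificial doublets made for each cell, on 1500 genes, marked 550 cells, whose removal was an alternative. Shares of cells were thinned to 2000 UMIs with seed 1. The procedure was tested on simulated data. The settings varied numbered 15, and 3 more, on the Trav13-1 cells of Trbv19, were added after the data were seen. Python 3.11.15, numpy 2.4.6, scipy 1.17.1, pandas 2.3.3, scikit-learn 1.9.0, matplotlib 3.10.9, Biopython 1.88, R 4.3.3 and edgeR 4.0.16 (scaling factors only) were used.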

Additional observations from a re-analysis of the deposited data

Results flagged for a closer look

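Cells with 1 Gzmk UMI were outside the threshold, and transcripts of a segment were found in them above the level of other segments' cells with 1 Gzmk UMI. Klra1 was found in 26.7% of the 30 Trbv12-1 cells with 1 Gzmk UMI (interval 12.3 to 45.9%), against 0.485% of 206 cells of all other segments. Atp6v1g3 was found in 20.0% of the 15 Trbv17 cells with 1 Gzmk UMI (4.33 to 48.1%), against 0 of 221, which has an upper interval bound of 1.66%. The number of cells limits both values.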

How the results depend on the processing

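No paired analysis was possible because each group had 1 library and no test was made. Of the named genes' ratios under the alternatives, 834 stayed within their counting interval, 86 moved outside it and 3 changed sign. Those were Ccl4 in Trbv12-1 at -0.032 with at least 4 Gzmk UMIs, Hist1h2ap in Trbv19 at 0.19 with each cell scaled alike, and Lag3 in Trbv19 at -0.11 without Trav13-1 cells. The Trbv17 share of Gzmk cells was 25.2% with at least 4 Gzmk UMIs and 13.8% without cells holding a second Trbv. Without the latter cells, Trav9-3 led 74.5% of Trbv12-1 and Trav3-3 68.8% of Trbv17 cells with a leading family. These shares rest on few cells: Trav9-3 led 35 of all 188 such Trbv12-1 cells, where 138 had no Trav UMI. Trav3-3 led 11 of all 129 such Trbv17 cells, where 110 had none. Genes past 2-fold in Trbv19 came to 20 with at least 4 Gzmk UMIs, 19 without a second Trbv, 21 with totals free of ribosomal, mitochondrial and receptor genes, and 33 without Trav14-1 cells. Those totals raise every CPM, so more genes reach 50 CPM, and gave 30 in Trbv12-1 and 37 in Trbv17. Without Trav9-3 cells, Trbv12-1 had 11. Between Trbv12-1 and Trbv19 the count was 36 at a minimum of 50 UMIs, and at 200 UMIs the pairs had 13 (Trbv12-1 and Trbv17), 10 (Trbv12-1 and Trbv19) and 6 (Trbv17 and Trbv19). Thinned to 1000 UMIs, Klra1 was found in 18.8% of Trbv12-1 cells, Atp6v1g3 in 5.95% of Trbv17 and Ccl3 in 11.1% of Trbv19 cells. Unthinned, these were 44.1%, 33.7% and 28.4%, and Atp1b1 in Trbv17 was 39.7%. Where no construction is named the cause was not tested. Depth limits low genes: 1 UMI in Trbv19 cells was 1.20 CPM.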
